A study of Mus musculus with 4 samples.

Results

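Genes that govern where lymphocytes travel were examined for binding of the transcription factors Eos and Helios in mouse regulatory T (Treg) cells. These 7 genes were the transcription factor genes Klf2 and Klf3, the receptor genes S1pr1, Gpr183, Ccr7 and Cxcr4, and the integrin gene Itgal. A peak belonged to one of them where its summit lay inside the gene, or where the protein-coding gene end nearest to the summit, within 100 kb, was an end of that gene. By this rule 7 of the 1106 anti-Eos peaks and 4 of the 469 anti-Helios peaks belonged to them, and 5 of the 7 genes held at least 1 peak. Ccr7 and Cxcr4 held 0 in either list.

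The assay was ChIP-seq, in which chromatin is pulled down with an antibody and the DNA that comes with it is sequenced. Eos (gene Ikzf4) and Helios (gene Ikzf2) are zinc finger proteins of the Ikaros family that are expressed in Treg cells. The libraries used were WT anti-Eos (clone 18H2) and WT anti-Helios (clone D8W4X), 1 library each, from splenic CD4+CD25+ cells of wild-type mice whose age is not given in the labels. The cells had been fixed for 10 min with 1% formaldehyde, and 6 µg of antibody went into each immunoprecipitation. The 2 Eos KO libraries, from mice with floxed Eos and Foxp3-Cre, in which deletion is limited to cells that express Foxp3, were not analysed here.

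Lymphocytes recirculate between blood and lymphoid organs by reading chemical gradients and by holding on to vessel walls. S1PR1 senses sphingosine 1-phosphate and takes lymphocytes out of lymphoid organs. CCR7 brings them into the T cell zones, and CXCR4 answers the chemokine CXCL12 and retains cells in bone marrow and other niches. GPR183 (EBI2) follows oxysterols within lymphoid tissue, and the integrin alpha chain CD11a, encoded by Itgal, pairs with Itgb2 to form LFA-1, which binds ICAM-1. KLF2 is known as an activator of S1pr1 and other trafficking genes in T cells, and KLF3 is a related factor that often acts as a repressor.

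With 1 library per antibody there was no replicate error, and the values describe these libraries. Each fold below is the authors' enrichment at the summit over a local background from a control library that is not identified in the sources used here. The number of fragments behind each summit was inferred from the authors' values, and every interval given is an exact 95% Poisson or binomial interval for counting error only, with the local background taken as exact. Peak lists do not measure expression. Of the marker genes examined, anti-Eos summits lay at 3 of 5 Treg genes (Il2ra, Ikzf2 and Ikzf4, not Foxp3 or Ctla4). Anti-Helios summits lay at 0 of these 5. Each list had 1 of 3 T cell genes (Cd3d) and 0 of 3 B cell, 0 of 3 myeloid and 0 of 3 erythroid genes. Over all protein-coding genes 4.38% had an anti-Eos summit and 2.12% an anti-Helios summit. At such shares 0 among so few genes says little, and these counts do not identify the cells. Coordinates are those of GRCm38 (mm10).

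Anti-Eos summits were present at 5 of the 7 genes (Klf2, Klf3, S1pr1, Gpr183 and Itgal), where 4.38% of all 21887 protein-coding genes had one. Anti-Helios summits were present at 3 of the 7 (Klf3, S1pr1 and Itgal), against 2.12% of protein-coding genes. These same 3 genes had summits of both antibodies, as did 1.54% of protein-coding genes. With a -log10 q of at least 5, 3 of the 7 anti-Eos summits at these genes were left, where 74.4% of all anti-Eos peaks were, and 2 of the 4 anti-Helios summits, where 76.1% of all were. At that limit 0 of the 3 shared places at these genes were left, against 232 of all 310 overlapping pairs (74.8%). The list was put together with earlier results of these data known, so these counts are a description and no test was made of them. Counting overlapping peaks once, the 7 genes had 8 occupied places, of which 3 were shared, 4 had an anti-Eos peak alone and 1 had an anti-Helios peak alone.

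**Figure D1:**
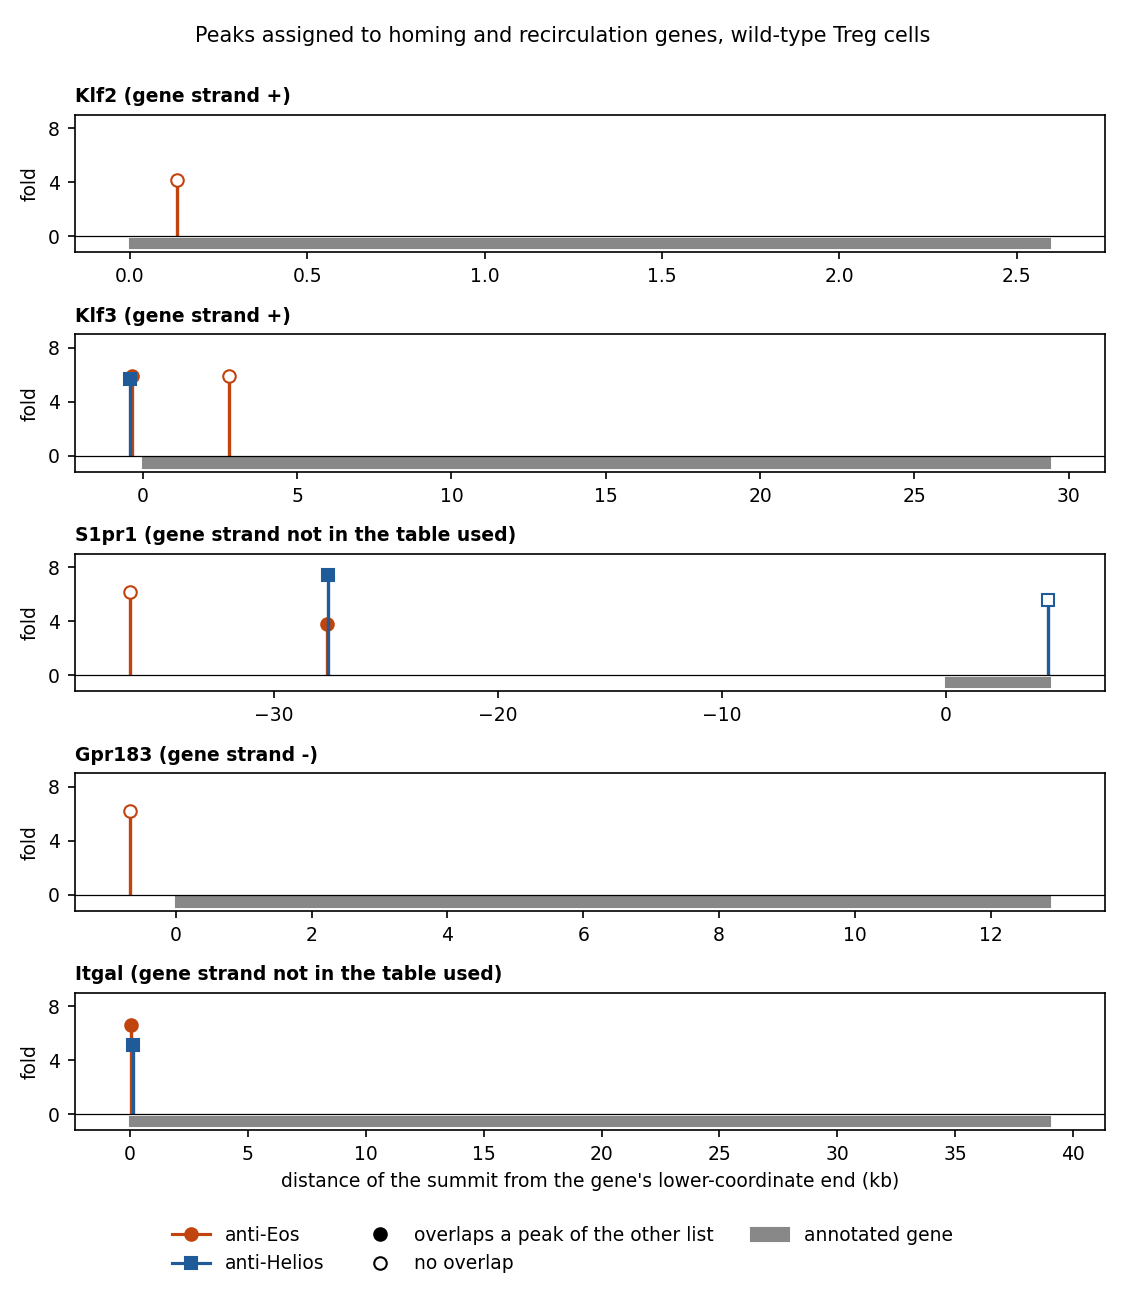
Peaks at the 5 occupied genes. Each panel shows 1 gene (grey bar) with the distance of each summit from its lower-coordinate end on the x axis (kb) and the authors' fold on the y axis (linear, per list). Filled symbols mark peaks that overlap a peak of the other antibody. The peaks of Klf2 and Itgal lay just inside 1 end of the gene, the paired peaks of Klf3 just outside it, the shared S1pr1 peaks 27.6 kb away and the Gpr183 peak 674 bp beyond the gene.

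The stretches of 250 bases before the annotated start of Klf2, Klf3, Gpr183 and Cxcr4 are shown to set the peak positions against the sequence there, since the first pair had peaks next to their starts and the second pair did not. They are from RefSeq (GRCm38.p6), read 5′ to 3′ on the strand of the gene: Klf2 at chr8:72318812-72319061 (plus strand), Klf3 at chr5:64803271-64803520 (plus), Gpr183 at chr14:121965194-121965443 (minus) and Cxcr4 at chr1:128592300-128592549 (minus). Capitals mark GGGAA or its reverse complement TTCCC, the core recognised by Ikaros family zinc fingers.
Klf2: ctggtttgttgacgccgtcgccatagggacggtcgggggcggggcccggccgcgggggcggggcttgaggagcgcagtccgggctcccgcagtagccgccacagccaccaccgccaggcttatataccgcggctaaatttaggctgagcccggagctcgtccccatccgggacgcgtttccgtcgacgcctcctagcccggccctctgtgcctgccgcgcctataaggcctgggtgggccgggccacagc
Klf3: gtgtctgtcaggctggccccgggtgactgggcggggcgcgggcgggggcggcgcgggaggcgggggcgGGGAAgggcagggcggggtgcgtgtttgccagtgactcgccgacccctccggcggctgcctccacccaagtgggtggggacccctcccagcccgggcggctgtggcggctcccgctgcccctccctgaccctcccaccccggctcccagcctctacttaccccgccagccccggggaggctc
Gpr183: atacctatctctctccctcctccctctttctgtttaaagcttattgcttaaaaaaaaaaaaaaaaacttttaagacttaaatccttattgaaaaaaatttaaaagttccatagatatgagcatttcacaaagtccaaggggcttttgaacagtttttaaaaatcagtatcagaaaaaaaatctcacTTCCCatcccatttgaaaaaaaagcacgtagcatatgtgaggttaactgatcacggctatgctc
Cxcr4: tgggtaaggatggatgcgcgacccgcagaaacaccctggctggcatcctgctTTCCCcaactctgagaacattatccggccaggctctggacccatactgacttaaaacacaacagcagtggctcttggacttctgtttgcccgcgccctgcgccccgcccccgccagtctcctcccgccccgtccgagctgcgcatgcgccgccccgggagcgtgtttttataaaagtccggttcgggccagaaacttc
No entry in the RefSeq promoter table was matched for S1pr1, Itgal and Ccr7.

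The stretches before Klf2 and Klf3 were 71.2% and 78.4% G or C, that of Cxcr4 61.2% and that of Gpr183 32%, where the median of all 32851 RefSeq windows of this length was 52.4%. GGGAA on either strand occurred once each before Klf3, Gpr183 and Cxcr4 and 0 times before Klf2. At least 1 match was present in 56.2% of all windows, so its presence before a gene is common. CCGCCC, the GC box, occurred 6 times on either strand before Klf3, 3 times before Cxcr4, 2 times before Klf2 and 0 times before Gpr183, and was present in 32.7% of windows. In Klf3, 1 GC box shares 1 base with the GGGAA match. AGGAAG (ETS family, in 29.5% of windows) and TGTGGT (RUNX family, in 14%) had 0 matches on either strand in these 4 stretches. No summit of either antibody fell within the printed bases, so these matches describe the printed letters and not the peaks.

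Klf2, the factor that activates trafficking genes in resting T cells, carried a single weak anti-Eos peak just inside its start and no anti-Helios peak. The gene spans 2.59 kb on chromosome 8 (72319062 to 72321654), and the peak at chr8:72319177-72319316 had its summit 133 bp into it. The fold was 4.16 (counting interval 2.25 to 7.16), from 11 fragments over a local background of 1.89. Its -log10 q of 2.16 was near the lowest of the list, 2.08, and its fold ranked 1084 of 1106. The nearest anti-Helios peak lay 158.3 kb from Klf2. Another anti-Eos peak lay 32.9 kb from Klf2 (chr8:72354442-72354714, fold 10.4, 19 fragments), but inside Eps15l1, an endocytic adaptor gene, and 13.6 kb from an end of it, so the rule gave it to that gene.

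Klf3 had peaks of both antibodies just before its start and a second anti-Eos peak inside the gene. It spans 29.4 kb on chromosome 5 (64803521 to 64832901, plus strand). The shared place lay 365 bp before the start with anti-Eos (chr5:64802982-64803169, fold 5.88, counting interval 3.10 to 10.4, 10 fragments) and 423 bp before it with anti-Helios (chr5:64803086-64803277, fold 5.70, interval 3.52 to 8.82, 18 fragments). The summits were 58 bp apart and the peaks had 84 bp in common. The anti-Helios peak reached 7 bases into the Klf3 stretch printed above, the first bases of that line, and the anti-Eos peak ended 102 bp before it. The second anti-Eos summit lay 2800 bp into the gene (chr5:64806214-64806385, fold 5.89, interval 3.51 to 9.35, 16 fragments), 3165 bp from the first, and overlapped no anti-Helios peak.

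At all 3 Klf3 peaks the summit also lay inside Gm38457, a protein-coding gene that spans the Klf3 start. The Klf3 end was the nearer at each, by 365 against 786 bp, 2800 against 2859 bp, and 423 against 728 bp for the anti-Helios summit. The second anti-Eos summit was therefore about as far from Gm38457 as from Klf3.

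S1pr1, the exit receptor, was the gene with the most peaks, 2 of each antibody, and 3 of the 4 lay outside it. It spans 4.62 kb on chromosome 3 (115710433 to 115715055), and the next protein-coding gene, Dph5, was 173.1 to 214.1 kb from these summits. The shared place lay 27.6 kb outside the gene with both antibodies, 36 bp apart at the summits. The anti-Eos peak there (chr3:115682799-115682987) had a fold of 3.77 (counting interval 2.28 to 5.91), with 17 fragments over a background of 3.77. The anti-Helios peak (chr3:115682720-115682937) had a fold of 7.41 (interval 4.94 to 10.7), with 26 fragments over a background of 2.28. This was the anti-Helios peak with the highest fold and -log10 q (10.8) among the 7 genes, whereas the anti-Eos peak ranked 1098 of 1106 by fold. The background under the anti-Eos peak equalled 4.00 control fragments, and its part in the low fold was not tested. Without peaks of over 3 control fragments of background this anti-Eos peak drops out, and the shared places at the 7 genes are those of Itgal and Klf3.

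A second anti-Eos peak lay 8.78 kb farther out, 36.4 kb from S1pr1 (chr3:115673850-115674092, fold 6.17, interval 3.34 to 10.6, 11 fragments), without an anti-Helios partner. It was 32.3 kb from the non-coding RNA gene Gm40124 and so nearer to that gene than to S1pr1. Of the assigned summits it was the farthest inside the 100 kb limit, and the nearest outside it whose closest protein-coding gene end belonged to one of the 7 was an anti-Eos summit 174.8 kb from Cxcr4. The second anti-Helios peak lay inside S1pr1, 58 bp from an end (chr3:115714851-115715010, fold 5.56, interval 2.96 to 9.75, 10 fragments), and no anti-Eos peak overlapped it. Its -log10 q of 2.42 was close to the lowest of that list, 2.24. Both anti-Eos peaks thus lay on 1 side of S1pr1 and away from it, and the peak at the gene itself was an anti-Helios one. Which end of S1pr1 is its start is not given in the tables used here.

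Gpr183, the oxysterol receptor, had 1 anti-Eos peak, at the end of the gene and not at its start. The gene lies on the minus strand of chromosome 14 (121952331 to 121965193), inside the longer gene Ubac2, which encodes a protein of the endoplasmic reticulum. The peak at chr14:121951548-121951696 had its summit 674 bp beyond the 3′ end of Gpr183 and 13536 bp from its start, and the summit itself lay inside Ubac2. Its fold was 6.22 (counting interval 3.45 to 10.5), from 12 fragments over a background of 1.09, with a -log10 q of 5.26. No anti-Helios peak was assigned to Gpr183. The nearest lay 48835.2 kb away, where the median over all protein-coding genes was 1587.0 kb, so the absence covers a long stretch of the chromosome and not Gpr183 alone.

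The chemokine receptor genes Ccr7 and Cxcr4 had 0 assigned peaks. At Ccr7 (chromosome 11, 99144199 to 99155077) the nearest anti-Eos peak lay 48.9 kb away (chr11:99203918-99204174, fold 6.65, 10 fragments). It was, however, 5025 bp from an end of Smarce1, a subunit gene of SWI/SNF chromatin remodelling complexes. The nearest anti-Helios peak lay 201.9 kb from Ccr7. At Cxcr4 (chromosome 1, 128588199 to 128592299) the nearest anti-Eos peak was 174.8 kb away (fold 6.50), and the nearest anti-Helios peak, within Dars, was 171.0 kb away (fold 5.17). Over all protein-coding genes the median distance was 646.2 kb to the nearest anti-Eos summit and 1587.0 kb to the nearest anti-Helios summit, so neither gene was farther from a peak than most. At these depths a place with few fragments would not be listed: the anti-Eos peak with the fewest fragments had 7, and the anti-Helios one 9.

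**Figure D2:**
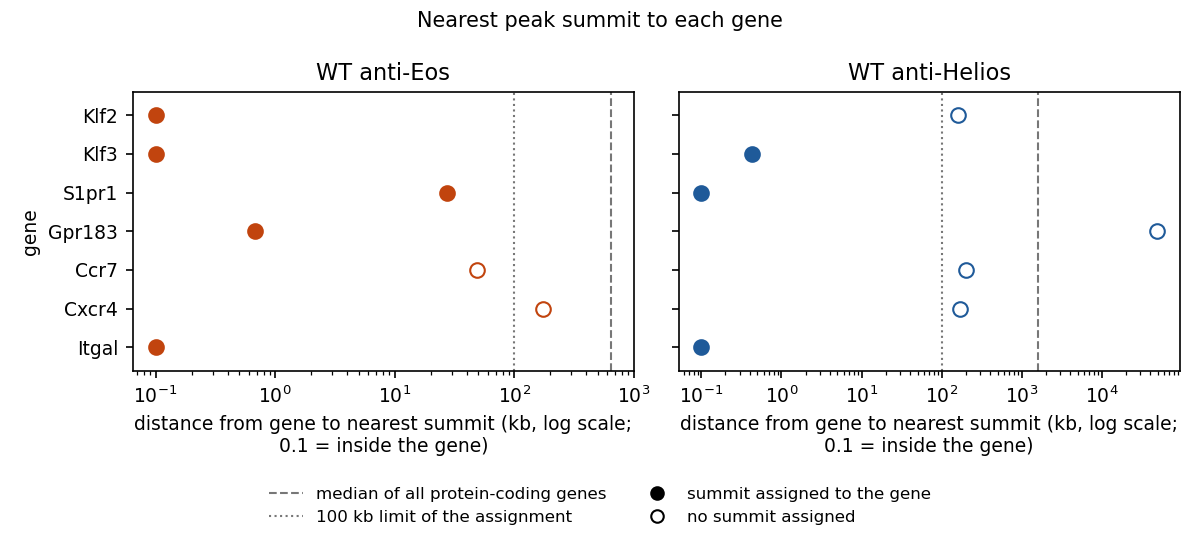
Distance from each of the 7 genes to its nearest anti-Eos summit (left) and anti-Helios summit (right), in kb on a log axis, with genes that contain a summit drawn at 0.1 kb. Filled points have an assigned summit. Ccr7 lay 48.9 kb from an anti-Eos summit that was nearer to another gene, and Cxcr4 lay 174.8 kb from one.

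Itgal, the alpha chain gene of LFA-1, had 1 shared place at an end of the gene. It spans 39.0 kb on chromosome 7 (127296139 to 127335137). The anti-Eos summit lay 54 bp inside the lower-coordinate end (chr7:127296113-127296347, fold 6.58, counting interval 4.04 to 10.2, 18 fragments) and the anti-Helios summit 132 bp inside it (chr7:127296203-127296418, fold 5.11, interval 3.06 to 8.09, 16 fragments). The peaks had 145 bp in common. The next protein-coding gene end was over 22 kb from either summit. With a -log10 q of 7.86 the anti-Eos peak was the most significant of its antibody at these genes, and the anti-Helios one had 3.78.

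The peaks at these genes were among the weaker ones of each list. Anti-Eos folds ran from 3.77 to 6.58 with a median of 5.89 at the 7 genes, against a median of 7.31 over the whole list (range 1.99 to 35.7). Anti-Helios folds ran from 5.11 to 7.41 with a median of 5.63, against 7.66 over the whole list (1.93 to 23.3). All 11 peaks were below the median fold of their list. By -log10 q, 9 of the 11 were below the median, the exceptions being the anti-Eos peak of Itgal (7.86, list median 7.36) and the shared anti-Helios peak of S1pr1 (10.8, list median 7.88). The anti-Eos peaks rested on 10 to 18 fragments (list median 14) and the anti-Helios peaks on 10 to 26 (list median 18), and the counting intervals of all 11 folds overlapped.

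**Figure D3:**
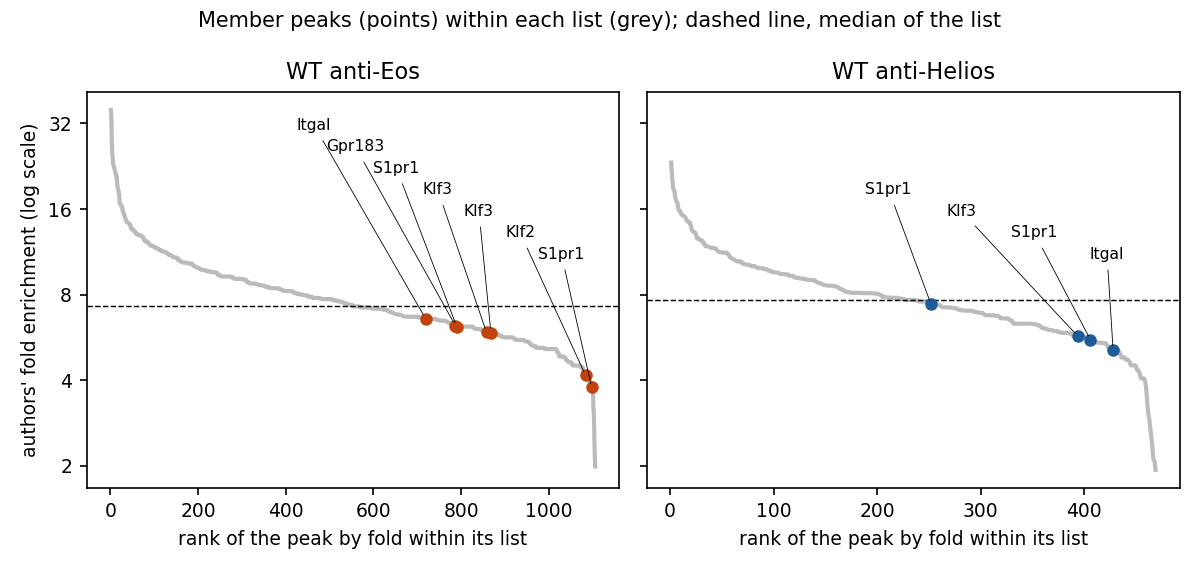
Authors' fold (log axis) against the rank of each peak by fold within its list, for anti-Eos (left, 1106 peaks) and anti-Helios (right, 469 peaks). Coloured points are the peaks of the 7 genes and the dashed line is the list median. All points lie below that line, with anti-Eos ranks of 719 to 1098 and anti-Helios ranks of 252 to 428.

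Of the 7 anti-Eos summits 4 were within 1 kb of a gene end (57.1%), as were 39.5% of all anti-Eos summits. Of the 4 anti-Helios summits 3 were (75%), against 51.0% of all. With so few peaks these shares are counts and not estimates. The order by distance, nearest first, was Itgal, Klf2, Klf3 and Gpr183 for anti-Eos and S1pr1, Itgal and Klf3 for anti-Helios.

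Overlap between the antibodies was then compared. At the 7 genes 3 of 7 anti-Eos peaks overlapped an anti-Helios peak, where 27.9% of all anti-Eos peaks did, and 3 of 4 anti-Helios peaks overlapped an anti-Eos peak, where 65.9% of all did. Among the anti-Eos peaks in the lowest quartile by -log10 q, to which the peaks of Klf2 and S1pr1 and the shared one of Klf3 belonged, 38 of 272 were shared (14%). In the next quartile, which held the Gpr183 peak and the second Klf3 peak, 42 of 273 were (15.4%), and in the third, with Itgal, 68 of 270 (25.2%). Most anti-Eos peaks of these quartiles, like those at Klf2 and Gpr183, had no anti-Helios partner.

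At the 3 shared places the fragments of both libraries could be set side by side. Over all 310 overlapping pairs the median ratio of anti-Eos to anti-Helios fragments was 0.941. Itgal had 18 anti-Eos and 16 anti-Helios fragments, a ratio of 1.13 (exact 95% interval 0.542 to 2.36). S1pr1 had 17 and 26, a ratio of 0.654 (0.333 to 1.25), and Klf3 had 10 and 18, a ratio of 0.556 (0.229 to 1.27). None of the 3 passed a two-sided exact binomial test against the median, adjusted over all 310 pairs (adjusted p = 1.0 for each, unadjusted exact p of 0.612, 0.286 and 0.191). Of all pairs 0.645% passed, 2 of 310, and 10 had an unadjusted p under 0.05. All 3 intervals include the median, and no difference was detectable at this depth. The test compares the reads of these 2 libraries and not the factors.

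**Figure D4:**
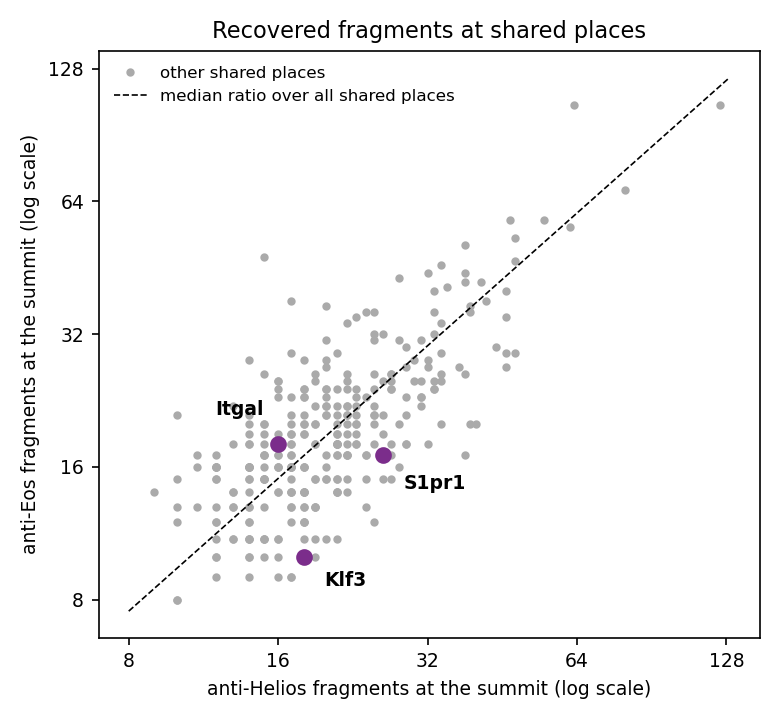
Recovered fragments at the summit with anti-Eos (y) and anti-Helios (x) for all 310 overlapping pairs, both on log axes. Grey points are other places, and the dashed line is the median ratio of 0.941. Itgal (18 and 16 fragments) lies above the line, and S1pr1 (17 and 26) and Klf3 (10 and 18) lie below it, all within the spread of the grey points.

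The shared places whose pair of folds was most like each of these, by the distance between log2 folds over the 2 libraries, are named next. For the S1pr1 place they were Slc2a3 (folds of 3.92 with anti-Eos and 7.06 with anti-Helios), Fam221a (3.92 and 7.82) and Bcl11b (4.16 and 8.10). The anti-Eos summits there lay 8408 bp outside Slc2a3, and inside Fam221a and Bcl11b at 673 and 17711 bp from an end. For Klf3 they were Stim2 (5.75 and 5.65), a place farther than 100 kb from any protein-coding gene end (5.67 and 5.79) and a place inside Tpcn1 whose nearest gene end was that of Iqcd, 7855 bp away (5.83 and 5.95). The anti-Eos summit named for Stim2 lay 3227 bp outside that gene. For Itgal they were a place assigned to Mrps18c in the anti-Eos list and to Helq in the anti-Helios list (6.77 and 4.81), Slc25a17 (7.07 and 5.55) and Zfp36l2 (5.89 and 5.41). The anti-Eos summits there lay 47 bp outside Mrps18c, 17569 bp outside Slc25a17 and 143 bp inside an end of Zfp36l2.

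A wider list of 54 lymphocyte trafficking genes, none of them among the 7, gave the context. This list too was put together with earlier results of these data known, so its counts are a description and no test was made. Anti-Eos summits lay at 11 of 54 (20.4%), against 4.38% of protein-coding genes, and anti-Helios summits at 8 of 54 (14.8%), against 2.12%. Of these genes 6 had both, where 1.54% of protein-coding genes did. Neither list had a summit at the adhesion genes Itgb2, the partner chain of Itgal in LFA-1, Itga4, Itgb7, Itgb1, Itgae, Itgav and Itga6, which encode other integrin chains, and Selplg, which encodes a selectin ligand. Itgal was the only integrin gene of those named here with an assigned peak. At the low shares over all protein-coding genes, the absence of summits from so few adhesion genes says little. It does not set Itgal apart from the other integrin genes.

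Of 12 chemoattractant receptor genes 1, Cxcr5, had peaks, which made 8.3% in each list. Over all protein-coding genes these shares were 4.38% (Eos antibody) and 2.12% (Helios antibody). A count of 1 gene in so short a list says little. The Cxcr5 peaks formed a shared place inside the gene, with folds of 11.6 with anti-Eos and 6.00 with anti-Helios. This place lay 3.9 kb from the nearest end of Cxcr5 and nearer still to an end of Bcl9l. Among 7 receptor coupling genes anti-Eos summits lay at 3 (42.9%) and anti-Helios summits at 2 (28.6%). Grk2, a kinase that desensitises chemokine and sphingosine 1-phosphate receptors, had an anti-Eos peak of fold 14.1. Rgs1, which damps G protein signals, had one of fold 13.6, with its summit 32 bp outside the nearer end of the gene. Arhgef1, a guanine nucleotide exchange factor gene downstream of such receptors, had 2 shared places, with folds of 9.65 in the anti-Eos list and 6.77 in the anti-Helios list at the first, and 4.61 and 9.45 at the second. Arrb2, a beta-arrestin gene, had an anti-Helios peak (8.10).

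Of 7 egress and lipid receptor genes anti-Eos summits lay at 2 (28.6%) and an anti-Helios summit at 1 (14.3%). Cd69, whose product takes S1PR1 off the cell surface, had 2 anti-Eos peaks (8.25 and 9.09), 34.3 and 9.2 kb away. Gpr132, a lipid-sensing receptor, had an anti-Eos peak (11.3) and an anti-Helios peak (7.37) inside the gene that did not overlap. Of 6 transcription factor genes anti-Eos summits lay at 2 (33.3%) and an anti-Helios summit at 1 (16.7%), against 4.38% and 2.12% of protein-coding genes. Klf10 had a shared place 1.4 kb inside the gene (fold 7.77 in the anti-Eos list, 11.3 in the anti-Helios list). Klf13 had 2 anti-Eos peaks over 73 kb away (5.54 and 5.19). Klf4, Klf6, Klf7 and Foxo1, the last of which acts upstream of Klf2, had 0.

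Integrin activation and motility genes had anti-Eos summits at 3 of 13 (Rap1a, Rasgrp2 and Coro1a) and anti-Helios summits at 3 of 13 (Rasgrp2, Rassf5 and Coro1a). These counts were 23.1% in each list. Rasgrp2, the exchange factor that activates the small GTPase Rap1 upstream of LFA-1, had a shared place 0.6 kb inside the gene (fold 6.65 in the anti-Eos list, 7.77 in the anti-Helios list) and a further anti-Eos peak of 4.63. Rassf5, which carries active Rap1 to LFA-1, had an anti-Helios peak of 5.87 inside the gene. It lay 28.2 kb from the nearest end of Rassf5 and nearer to an end of Eif2d. Coro1a, an actin regulator needed for T cell migration and survival, had anti-Eos peaks of 8.23 and 5.62 and an anti-Helios peak of 6.32 at other places.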

How the data were processed

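Of 4 labelled ChIP-seq libraries, the peak lists of WT anti-Eos and WT anti-Helios were used, 1 per group. The submitters' processing notes name BWA 0.7.1, cutadapt 4.4, SAMtools 1.17, Picard and deepTools 3.5.1, with mm10 and GRCm38.p6; no source used here gives the peak caller or the control libraries. The deposited lists hold the authors' fold (a ratio), -log10 p-value, -log10 q-value, integer score and summit offset (another number) of each peak that passed.

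Fragments and local background were solved from fold and p-value with a formula of the kind MACS uses, an inference, which returned both values for 100% of peaks within a relative tolerance of 0.0001. Fragments were scaled by 1 in the anti-Eos list and by 0.895 in the anti-Helios list, whose library was inferred to be 1.34 times as deep. The code was checked on made-up data with known answers.

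Genes came from RefSeq (GRCm38.p6), without exons; 4 of the 7 were matched in its promoter table. Overlap meant at least 1 bp. Fragment ratios had two-sided exact binomial tests, Benjamini-Hochberg adjusted over all 310 pairs (threshold 0.05). Named were all peaks of the 7 genes, the 3 places most like each shared one, and the 12 wider-list genes of highest fold; Rap1a completes a count. Members and lists were chosen with earlier results of these data known. Python 3.11.15, SciPy 1.17.1, pandas 2.3.3 and numpy 2.4.6 were used.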

Additional observations from a re-analysis of the deposited data

How the results depend on the processing

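Of 45 values recomputed under other settings 41 kept their direction, call or a count within 1.5 times. Without peaks of high local background (over 3 control fragments) S1pr1 kept 1 of its 2 anti-Eos summits, and 2 of the 3 shared places at these genes were left (and 279 of all 310 pairs), a count of shared places chosen after seeing the data. With the nearest gene of any type S1pr1 also had 1 anti-Eos summit. Requiring a -log10 q of at least 5 left 3 anti-Eos summits at 3 of the 7 genes (Klf3, Gpr183 and Itgal) and 2 anti-Helios summits (Klf3 and S1pr1), and 0 shared places, where 232 of all 310 pairs were left (74.8%); each shared place at these genes had a peak under that limit in 1 of the lists. Within 10 kb S1pr1 had 0 anti-Eos summits and 1 anti-Helios summit, and within 500 kb Cxcr4 gained 1 anti-Eos summit. Overlap of at least 0.5 of the width of both peaks left 2 of the 3 shared places (S1pr1 and Itgal) and 244 of all 310 pairs (78.7%). No member pair passed with the ratio of recovered depths (0.748) in place of the median (adjusted exact p of 0.85 to 1.0). Few fragments per peak limit all folds. No paired analysis was possible because each group had 1 library.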
